A study of Mus musculus with 3 samples.

Results

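The Myc family and its partners were read as 9 genes, each by 1 probe set, out of 19057 genes with a single annotated symbol. They are the Myc proteins Myc, Mycn and Mycl, their partner Max, and the antagonists Mxd1, Mxd3, Mxd4, Mxi1 and Mnt. A probe set was taken as a member's when that gene's symbol was the only one annotated to it, and no probe set listed a member together with other genes. The cells were R1, a mouse embryonic stem (ES) cell line derived from strain 129, profiled as 3 biological repeats on the Affymetrix Mouse Gene 1.0 ST array. There was 1 group, with no treatment or altered genotype in the labels, so the data show whether each gene gave signal and how far the repeats differed, and hold no comparison of conditions. R1 is a single line, and the sources used here do not give the medium, the passage or any feeder layer of its cultures.

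Myc, Mycn and Mycl are basic helix-loop-helix leucine zipper transcription factors that bind DNA as pairs with Max, at a short palindrome called the E-box, and recruit coactivators there. Max also pairs with the Mxd proteins (Mxi1 among them) and with Mnt, which occupy the same sites and recruit Sin3 corepressors, so the makeup of the Max pairs sets the balance of activation and repression. In mouse ES cells Myc and Mycn are known to support self-renewal, proliferation and biosynthesis, and loss of both impairs the pluripotent state.

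The E-box is shown first, because it is the DNA sequence that the family recognises. RefSeq promoter windows of assembly GRCm38.p6, from 250 bases before to 50 bases after each annotated start, were matched for 8 of the 9 members, all but Myc. The letters searched were CACGTG, which read the same on both strands. They were present in windows of 3 of the 8 members, Max, Mxd4 and Mnt, and each of these windows held them once. Of all 32851 promoter windows, 7.15% held these letters, and of the 27025 genes with a window 8.09% did. A match is a description of the letters and does not show binding. The member matches are printed with the motif in capitals.
Max: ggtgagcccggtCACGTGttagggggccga
Mxd4: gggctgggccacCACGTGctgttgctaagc
Mnt: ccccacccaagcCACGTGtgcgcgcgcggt

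The Max match lies at chr12:76962234-76962263 on the minus strand, with the motif beginning 3 bases before the annotated start. The Mxd4 match is at chr5:34187912-34187941 on the minus strand, 219 bases before the start. The Mnt match is at chr11:74830789-74830818 on the plus strand, 123 bases before the start.

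The Mycn window held E2F letters at 3 places. TTTGGCGC began 183 and 168 bases before its start, and GCGCGAAA, which is TTTCGCGC on the other strand, began 179 bases before it and overlaps the first match by 4 bases. E2F factors drive entry into S phase, and Mycn is a known E2F target. The search covered TTTGGCGC and TTTCGCGC on both strands, and 0.813% of all windows held either. No other member's window held them. These letters were chosen after the sequences were seen, so that share does not measure how unusual the Mycn matches are. Both motifs contain CpG, and the Mycn window held 14 CpG, where the median over all windows was 7. The part of CpG content in the matches was not tested. The stretch lies at chr12:12941979-12942037 on the minus strand, with the matches in capitals, the overlapping pair as 1 run.
Mycn: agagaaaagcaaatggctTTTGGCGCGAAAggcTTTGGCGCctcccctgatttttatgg

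Textbook Myc targets with a window held the E-box letters in 10 of 37 genes (27.0%), where 8.09% of all genes with a window did. CACGTG contains a CpG, and the median window held 21 CpG among targets and 23.5 among members, against 7 over all windows, so these shares are not like for like. The part of CpG content in the shares was not tested. The first such gene of each target list, in the order the lists were written, is printed as an example: Nop2, a nucleolar RNA methyltransferase, Ldha, the lactate dehydrogenase subunit, and Cdk4, the kinase of the D-type cyclins. Ldha held 2 matches and Cdk4 held 4.
Nop2: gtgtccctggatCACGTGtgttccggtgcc
Ldha, 145 bases before the start: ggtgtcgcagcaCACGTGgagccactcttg
Ldha, 48 bases before the start: cggcccagcctaCACGTGggttcccgcacg
Cdk4, 172 bases before the start: atggcagccagtCACGTGccacacagcgta
Cdk4, 118 bases before the start: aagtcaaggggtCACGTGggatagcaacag
Cdk4, 98 bases before the start: atagcaacaggtCACGTGgccgtcagggcc
Cdk4, 11 bases before the start: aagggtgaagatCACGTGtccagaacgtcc

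The Nop2 match is at chr6:125131811-125131840 on the plus strand and begins 60 bases before the start. The Ldha matches are at chr7:46845647-46845676 and chr7:46845744-46845773, and the outermost Cdk4 matches are at chr10:127063351-127063380 and chr10:127063512-127063541, all on the plus strand. In the other lists the letters were held by 2 of 6 genes of the Mlx branch and related genes, 1 of 5 upstream inputs, 1 of 8 corepressors, 1 of 8 PRC1.6 genes, 1 of 14 coactivators, 0 of 9 regulators of Myc stability and 0 of 7 genes repressed by Myc. No match says only that these letters are not in that window.

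Across the series, the median probe set intensity was 46.7 to 47.8 on the 3 arrays. A gene was called above background where it exceeded, on every array, the value that 95 percent of the 1186 genes for olfactory and vomeronasal receptors stay under, which lay at log2 intensities of 4.72, 4.60 and 4.61 in repeats 1, 2 and 3. A second, higher cutoff came from 120 keratin-associated protein, defensin and bitter taste receptor genes and lay at 6.19, 6.31 and 6.19. Of the ES cell markers 8 of 8 were above both cutoffs, Pou5f1 and Nanog among them. Of 8 fibroblast markers 7 were above both, and their summed intensity was 1440, 2188 and 1473 in repeats 1, 2 and 3; Lum was below background on every array. Of 5 haematopoietic markers only Laptm5 was above background, with the pan-leukocyte gene Ptprc below it on all arrays. Fewer cells of a type and less RNA per cell cannot be told apart in such bulk samples.

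All 9 members were above background on all 3 arrays, where 71.4% of genes outside the receptor families were. They also were above the 99th percentile of those receptor genes, where 54.8% of genes were. The members were chosen with earlier results of these data known, so the shares over all genes stand beside these counts as description only. At the higher cutoff 6 of the 9 were above on all 3 arrays, namely Myc, Mycn, Mycl, Max, Mxi1 and Mnt, against 42.1% of genes. Mxd1 and Mxd4 exceeded it on 1 array each and Mxd3 on none, so these 3 antagonists lie close to background and their signal was not shown to come from transcripts. Values below are log2 probe set intensities with mean ± SD over the 3 repeats. Probe sets differ in their probes, so the level of one gene is not set against that of another.

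**Figure D1:**
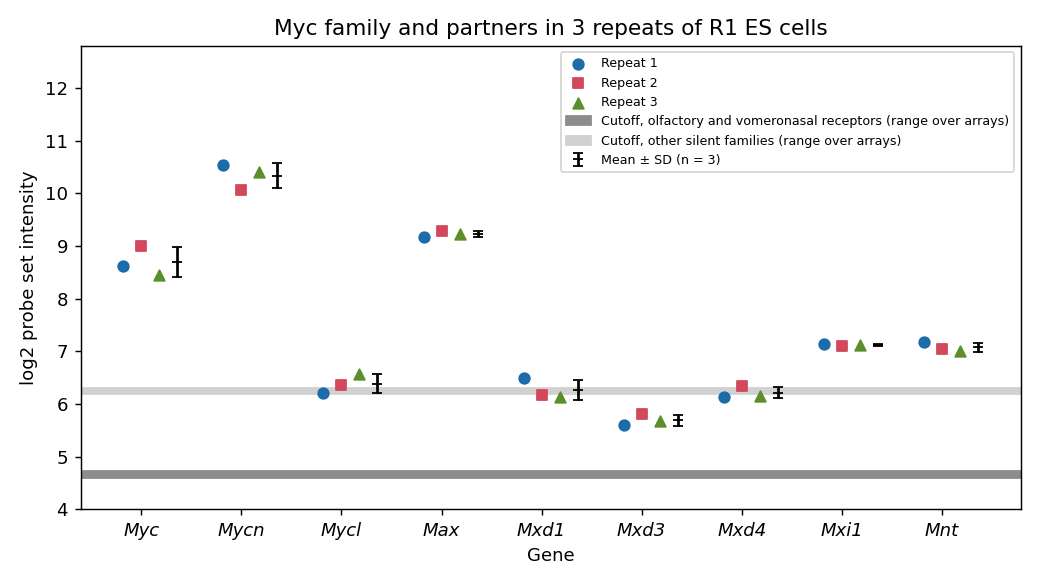
log2 probe set intensity (vertical axis) of the 9 genes in repeats 1, 2 and 3 (circles, squares, triangles), with the mean ± SD of 3 repeats in black and the ranges of both background cutoffs as grey bands. Every point lies above the receptor cutoff, while Mxd3 lies below the higher cutoff on all arrays; heights of different genes are not comparable because their probes differ.

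Myc, the founding member of the family and an immediate target of growth signals, read 8.61, 9.01 and 8.46 in repeats 1, 2 and 3, which are intensities of 391, 515 and 351. Repeat 2 was the highest and stood apart from the other repeats, which lay 0.16 log2 units from each other. The mean was 8.69 ± 0.29 (SD, n = 3), and repeat 2 exceeded the mean of repeats 1 and 3 by 0.48 log2 units, or 1.39-fold. Every array exceeded the receptor cutoff by at least 3.85 log2 units.

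Mycn, the family member that is prominent in embryonic and neural progenitors, read 10.53, 10.07 and 10.41, or intensities of 1481, 1073 and 1361. Here repeat 2 was the lowest, and repeats 1 and 3 lay within 0.12 log2 units. The mean was 10.34 ± 0.24 (SD, n = 3), and the mean of the other repeats was 1.32-fold above repeat 2. Repeat 2 was thus the highest array for Myc and the lowest for Mycn. The log2 difference of Mycn minus Myc was 1.92, 1.06 and 1.96 on the arrays of repeats 1, 2 and 3. Its size includes the unequal response of the 2 probe sets, which the arrays share, but it varied by 0.90 log2 units between arrays. These directions of Myc and Mycn in repeat 2 were the same after quantile normalization (0.43 and -0.46) and after centring on the array medians (0.49 and -0.39). The array medians were close, at intensities of 46.7 to 47.8, so centring on them could move the differences only slightly.

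Mycl, the third Myc protein, first known from lung cancer, read 6.21, 6.36 and 6.57, with repeat 3 the highest and a mean of 6.38 ± 0.18 (SD, n = 3). It exceeded the higher cutoff on every array, by little in repeats 1 and 2. Max, the partner without which the Myc proteins cannot bind DNA, read 9.16, 9.28 and 9.24. Its arrays spanned 0.12 log2 units, a 1.09-fold range, around a mean of 9.23 ± 0.062 (SD, n = 3). The common partner thus differed less between these arrays than Myc and Mycn did.

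**Figure D2:**
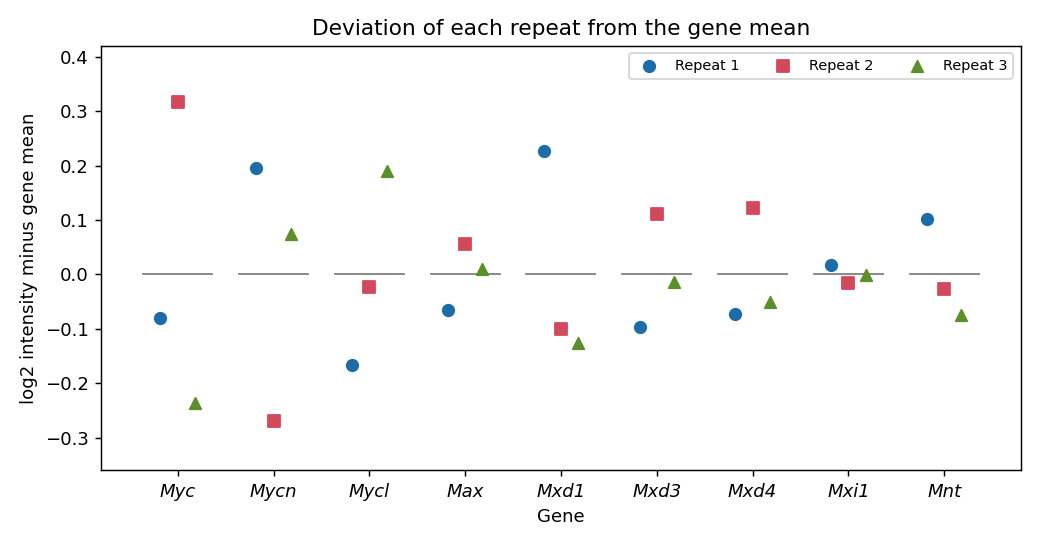
Deviation of each repeat from the gene's own mean, in log2 intensity (vertical axis), for the 9 genes, with circles, squares and triangles for repeats 1, 2 and 3. Repeat 2 lies 0.32 above the mean for Myc and 0.27 below it for Mycn, while the points of Max and Mxi1 stay within 0.066 and 0.018 of zero.

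Among the antagonists, Mxi1, which recruits Sin3, read 7.14, 7.11 and 7.12. Its SD of 0.017 around a mean of 7.12 was smaller than that of all but 2.21% of genes above background. Repeat 2 was its lowest array under each scaling, although the highest was repeat 1 as deposited and repeat 3 after median centring, on a span of 0.034 log2 units.

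Mnt, the most broadly expressed antagonist, whose protein is known to be present in dividing as well as resting cells, read 7.18, 7.05 and 6.998. The arrays spanned 0.18 log2 units with repeat 1 the highest, and the mean was 7.07 ± 0.091 (SD, n = 3). Mnt and Mxi1 were the antagonists that exceeded both cutoffs on every array, with smallest margins over the receptor cutoff of 2.39 and 2.42 log2 units.

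Mxd1, an antagonist typically induced when cells leave the cycle and differentiate, read 6.49, 6.16 and 6.14. Repeat 1 was the highest and the others were close together, with a mean of 6.26 ± 0.20 (SD, n = 3). Mxd4, of the same family, read 6.14, 6.33 and 6.16 (mean 6.21 ± 0.11, SD, n = 3), with repeat 2 the highest. Mxd3, the member linked to S phase of dividing cells, read 5.60, 5.80 and 5.68 (mean 5.69 ± 0.10, SD, n = 3), also with repeat 2 the highest. Its smallest margin over the receptor cutoff was 0.88 log2 units, the least of the 9 genes.

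Over the 9 genes the SD between repeats ran from 0.017 for Mxi1 to 0.29 for Myc, with a median of 0.11 log2 units, where the median of all genes above background was 0.10. The SDs of Myc and Mycn were larger than those of 96.9% and 94.0% of these genes. Those of Mxd1 and Mycl came next, at 88.0% and 84.2%, and the SD of Max exceeded that of 24.1%. Repeat 2 was the highest array for 4 members (Myc, Max, Mxd3, Mxd4) and the lowest for 2 (Mycn, Mxi1), where it was highest for 37.0% and lowest for 34.6% of genes above background.

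Because spread falls as level rises on these arrays, each gene's SD was also set against the prior SD that limma estimated for genes of its level. The ratio was 2.91 for Mycn and 2.84 for Myc, 1.48 for Mxd1 and 1.37 for Mycl. It was under 1 for the other 5, at 0.80 for Mxd4, 0.76 for Mnt and Mxd3, 0.65 for Max and 0.14 for Mxi1. In limma's variance test with Benjamini-Hochberg adjustment over 13591 genes, none of the 9 passed at 0.05, against 0.162% of genes. The smallest adjusted p were 0.479 for Mycn and 0.5001 for Myc, and the other 7 had at least 0.990. At an unadjusted p under 0.05 there were 2 members, Mycn and Myc, against 5.75% of genes. With 3 arrays in 1 group the test has 2 residual degrees of freedom. In simulated data it missed most genes changed on 1 array by more than Myc and Mycn differed here, so a miss does not show that the repeats were alike.

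**Figure D3:**
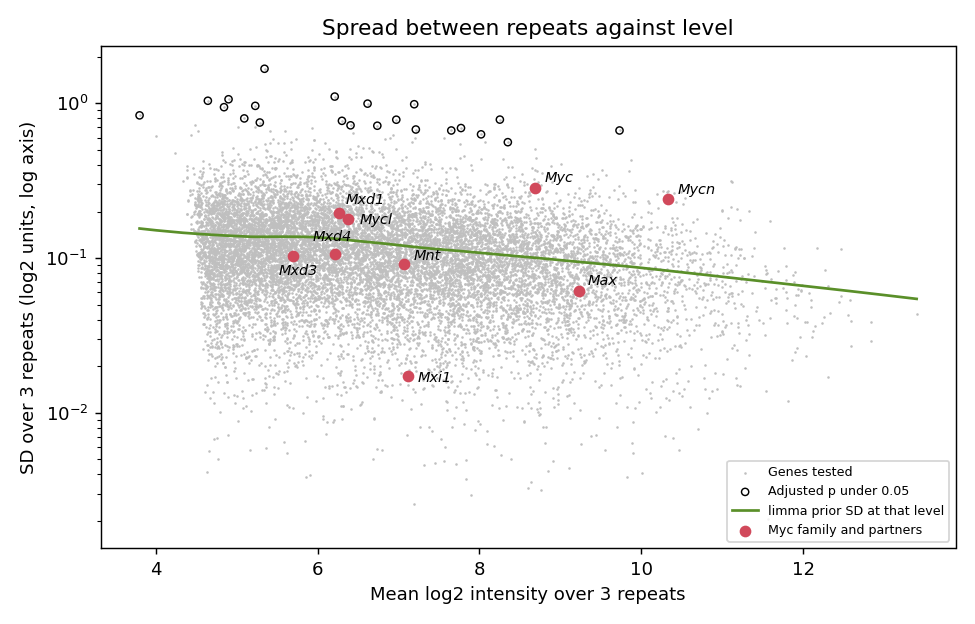
SD over 3 repeats in log2 units (vertical, log axis) against mean log2 intensity for the 13591 genes tested (grey), with limma's prior SD as a line, genes with an adjusted p under 0.05 as open circles and the 9 Myc network genes in red. Myc and Mycn lie above the line at 2.84 and 2.91 times the prior SD, below all open circles near their level, and Mxi1 lies far under it.

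The fibroblast marker sum was also highest in repeat 2, as Myc was. Of its 8 markers 6 were highest there, where 37.0% of genes above background were, with a median excess of 0.37 log2 units. Acta2 had the largest excess of these markers, at intensities of 190, 553 and 270, and passed limma's variance test (adjusted p = 0.0082). ES cell markers were highest in repeat 2 in 6 of 8 cases as well, with a median excess of 0.10. Neural markers were above background in 4 of 5 cases and above the higher cutoff in 2. They were highest in repeat 2 in 0 of 5 cases, with a median difference of -0.11 there. Primitive endoderm markers were above background in 4 of 6 cases and above the higher cutoff in 0, with a median difference of 0.024. Over genes outside the receptor families the shares above these cutoffs were 71.4% and 42.1%. The haematopoietic median was -0.12. The neural and haematopoietic medians are the values of Neurog2 and Cd79a, which were below background on every array. The primitive endoderm median rests in part on Dab2, also below background on every array. Between repeats 1 and 3 Myc differed by 0.16 and Mycn by 0.12 log2 units. The fibroblast sums of these repeats were close, but single markers differed. Acta2 was 0.50 log2 units higher in repeat 3 and Dcn 0.29 higher in repeat 1. The part of any of these marker lists in the values of Myc or Mycn was not tested.

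The genes with a pattern over the 3 arrays most like that of Myc, the member with the largest SD, were Sh3pxd2b, Id3 and Lama4. Their centred log2 values had root mean square differences from those of Myc of 0.0056, 0.0063 and 0.0068. Id3, an inhibitor of basic helix-loop-helix factors that BMP signals induce, read 6.998, 7.38 and 6.84, and Lama4, a laminin chain, read 5.28, 5.67 and 5.12, below the higher cutoff on every array. Sh3pxd2b, an adaptor of actin-rich podosomes, read 6.18, 6.59 and 6.02, above that cutoff in repeat 2 only. Among 12809 genes compared, 103 lay within 0.05 of Myc, a wider limit than the differences of the 3 named genes. Those 3 were thus the closest of many genes compared on only 3 arrays.

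The surrounding pathway was read through 10 lists with 111 genes, of which 102 were measured. All 102 were above the receptor cutoff on all 3 arrays, where 71.4% of genes were, and 94 were above the higher cutoff, where 42.1% were. The lists were chosen with earlier results of these data known, so these counts are a description and not a test against those shares. None of the 102 passed the variance test, where 0.162% of genes did, and 7 had an unadjusted p under 0.05 (5.75% of genes). The median SD over the lists was 0.080 log2 units.

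Relatives outside the membership include the Mlx branch, whose proteins form a parallel network that senses glucose-derived metabolites. Mlx, the Max-like partner, read 7.89 ± 0.085 (SD, n = 3), Mlxip 6.58 ± 0.098 and Mlxipl, prominent in liver, 5.71 ± 0.080. Mlxipl was below the higher cutoff on every array. Zbtb17, the zinc finger factor through which Myc represses genes, and Bmyc, a mouse relative of the Myc amino terminus, were the other measured genes of this list, at 6.89 ± 0.071 and 6.98 ± 0.057. All 5 were above the receptor cutoff, and their SDs were at most 0.098.

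Of the coactivators that Myc recruits, all 14 measured genes were above both cutoffs, with a median SD of 0.062, where that of all genes above background was 0.10. Their means ran from 7.55 to 9.88, while the median level of genes above background was 6.78 to 6.83 on the 3 arrays. Spread falls as level rises, so these SDs are not like for like. Trrap, the scaffold of histone acetyltransferase complexes that Myc binds directly, read 8.34 ± 0.040 (SD, n = 3), and the acetyltransferases Kat2a and Kat5 read 8.78 ± 0.065 and 7.55 ± 0.019. Ep300, another acetyltransferase, had the largest SD of the list, at 9.17, 9.50 and 9.33 in repeats 1, 2 and 3.

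Corepressors of the Mxd and Mnt proteins gave signal throughout, with 7 of 7 measured genes above both cutoffs. Sin3a, the scaffold that the antagonists bind, read 9.17 ± 0.091 (SD, n = 3), its relative Sin3b 7.33 ± 0.15, and the deacetylase Hdac1 11.07 ± 0.075. Of the antagonists, Mxi1 and Mnt were also above both cutoffs on every array, while Mxd1, Mxd3 and Mxd4 lay near background.

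Max also sits with Mga in the Polycomb complex PRC1.6, which silences germline genes in ES cells. All 10 genes of this complex were above both cutoffs, with Mga at 9.55 ± 0.067 (SD, n = 3), the Polycomb subunit Pcgf6 at 8.72 ± 0.19 and the repressor E2f6 at 7.52 ± 0.12. Of the 10 genes 8 were highest in repeat 2, where 37.0% of genes above background were, and the median excess of repeat 2 was 0.15 log2 units. Rybp had the largest SD, with 8.55, 8.93 and 8.66 in repeats 1, 2 and 3. None passed limma's variance test, in which the lowest adjusted p of the list was 0.911, and none had an unadjusted p under 0.05.

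Genes that control Myc protein stability were above the receptor cutoff in 10 of 10 cases. Fbxw7, the ubiquitin ligase subunit that marks phosphorylated Myc for destruction, read 5.14 ± 0.13 (SD, n = 3) and was below the higher cutoff on every array. Gsk3b, the kinase that phosphorylates Myc for Fbxw7, read 8.09 ± 0.13, and Skp2, another ligase subunit acting on Myc, 8.59 ± 0.098. Ppp2r5a, a phosphatase subunit that acts on Myc, had the largest SD, with 9.38, 9.75 and 9.36, highest in repeat 2 as Myc was (limma adjusted p = 0.686). Usp28, of the same list, had a similar SD (0.21 against 0.22) but was lowest in repeat 2, at 9.30, 8.88 and 9.16 (limma adjusted p = 0.793). Of the 10 genes 5 were highest and 3 lowest in repeat 2, where 37.0% and 34.6% of genes above background were.

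Among inputs to Myc transcription, the Wnt pathway factors Lef1 and Tcf7l1 read lowest in repeat 2. Lef1 read 8.48, 7.99 and 8.54 and Tcf7l1 read 8.35, 8.09 and 8.42, so that repeat 2 lay 0.52 and 0.30 log2 units under the mean of the others. Repeat 2 was the lowest array for 4 of the 5 genes of this list, where 34.6% of genes above background had it lowest. That array was also the lowest for Mycn, but the highest for Myc. Lef1 did not pass limma's variance test (adjusted p = 0.495, unadjusted p = 0.0078). Stat3, the factor downstream of LIF, read 8.92 ± 0.11 (SD, n = 3), and Ctnnb1, which encodes beta-catenin, 10.82 ± 0.054.

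Textbook Myc targets gave signal in all 43 measured cases, and 40 exceeded the higher cutoff, all but Eif4e, E2f2 and Tert. Their median SD was 0.070, and the median of repeat 2 minus the other repeats was -0.01 log2 units, where it was 0.0069 over all genes above background. In ribosome biogenesis, the nucleolar proteins Ncl, Npm1 and Fbl read 12.10 ± 0.049, 11.59 ± 0.17 and 9.11 ± 0.034 (SD, n = 3). Rrs1, a ribosome assembly factor with the largest SD of these 18 genes, read 8.94, 8.88 and 8.49, lowest in repeat 3. The median difference of repeat 2 in this list was 0.044.

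In metabolism and translation, Odc1, the first enzyme of polyamine synthesis, read 11.09 ± 0.082 (SD, n = 3), Cad, which starts pyrimidine synthesis, 9.77 ± 0.17, and Srm, the spermidine synthase, 10.47 ± 0.068. Shmt2, the mitochondrial serine hydroxymethyltransferase, had the largest SD, at 8.97, 9.20 and 9.38 in repeats 1, 2 and 3. The median of repeat 2 minus the others was -0.061 over the 16 genes. The target lists for ribosome biogenesis and for metabolism thus had small medians of opposite sign.

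Of the cell cycle targets, Ccnd2, which encodes cyclin D2, had the largest SD of all listed genes. It read 8.05, 8.78 and 8.21, and repeat 2 exceeded the mean of the others by 0.65 log2 units, in the repeat in which Myc was highest. Of the 9 genes of this list 4 were highest and 4 lowest in repeat 2, where 37.0% and 34.6% of genes above background were. The median difference of repeat 2 in this list was 0.024. Ccnd2 did not pass limma's variance test (adjusted p = 0.231, unadjusted p = 0.0014). Its kinase partner Cdk4, whose window held 4 E-box matches, read 11.54, 11.64 and 11.63, and Ccne1, which encodes cyclin E1, read 10.53 ± 0.12 (SD, n = 3).

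Genes that textbooks list as repressed by Myc were above the receptor cutoff in 8 of 8 cases and above the higher one in 5. Over genes outside the receptor families the shares above these cutoffs were 71.4% and 42.1%. The 3 below the higher cutoff on at least 1 array were Cdkn1b, Gata6 and Cebpa, and each was below it on all. Cdkn1b, the CDK inhibitor p27, read 5.95, 5.64 and 6.15, lowest in repeat 2. Cdkn2b, another CDK inhibitor, read 6.47 ± 0.059 (SD, n = 3), and Gadd45a, a growth arrest gene, 9.23 ± 0.15. The median of repeat 2 minus the other repeats was -0.07 log2 units in this list, and none had an unadjusted p under 0.05 in limma's variance test.

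**Figure D4:**
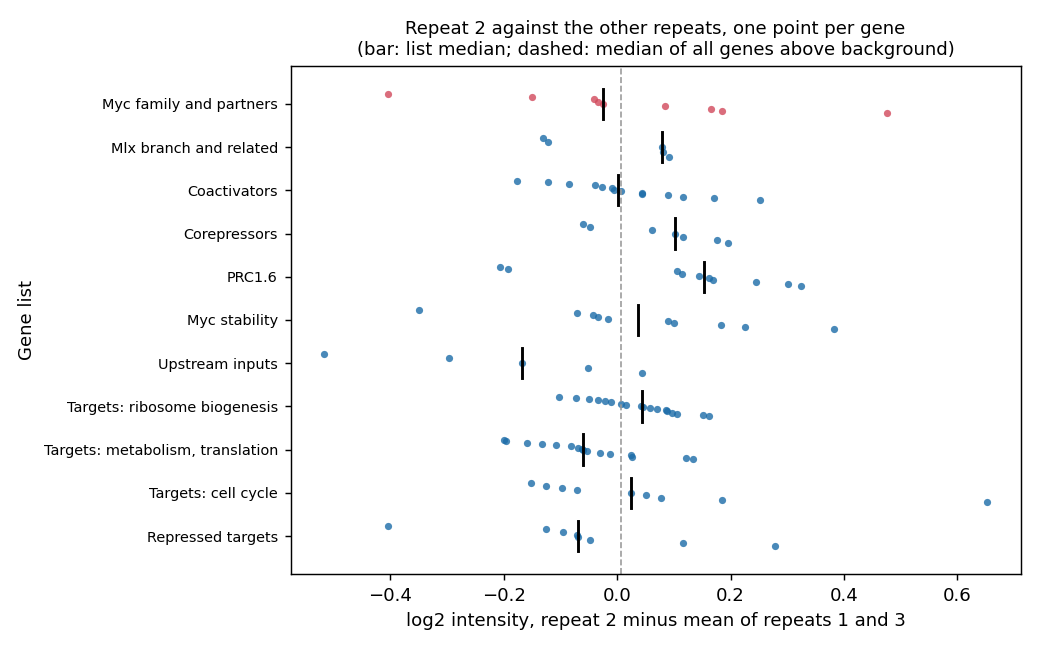
Log2 intensity of repeat 2 minus the mean of repeats 1 and 3 (horizontal axis) for each gene of the Myc network and of 10 lists around it (rows, 1 point a gene), with a black bar at each list's median and a dashed line at the median of all genes above background (0.0069). Myc (0.48) and Ccnd2 (0.65) lie at the right, Lef1 (-0.52) and Mycn (-0.40) at the left, and the target lists centre near zero.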

How the data were processed

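Total RNA of 3 cultures was labelled with biotin and hybridised to 1 array each, per the labels' protocols. The deposited values are probe set intensity on a linear scale. The submitters' processing notes name GCOS 1.4, while background correction, normalization and summary are unstated in the sources used here, so sizes of differences may depend on unknown steps. Values were taken to log2 without further normalization. Of 26730 probe sets 20764 had 1 symbol and were used; 20678 of these matched RefSeq identifiers (GRCm38.p6). Genes with more than 1 probe set (930) were given their mean.

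The variance test (limma 3.58.1 in R 4.3.3) divided the variance of an intercept-only fit by the trended, robust prior variance, over genes exceeding the cutoff on any array (F distribution, 2 and 9.87 degrees of freedom); it was tested on simulated data. The number of arrays limits precision. Members and lists were chosen with earlier results of these data known, and the E2F letters after the sequences were seen. Named genes were all members, the first 3 measured and the most variable gene of each list, and the 3 genes most like the member of largest SD. The rule would also have named genes below the cutoff, of which the lists held 0. Zbtb17, Bmyc, Usp28, Eif4e, E2f2, Tert, Gata6, Cebpa and the genes most like Mycn were named after their values were seen. So were the markers Acta2, Dcn, Neurog2, Cd79a and Dab2. Nop2 and Ldha were named for their sequence. Alternatives were other cutoffs and scalings, other priors, all genes, the highest probe set and leaving out each repeat.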

Additional observations from a re-analysis of the deposited data

How the results depend on the processing

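The count of 9 members above background stayed at 9 when 2 of 3 arrays sufficed and without each repeat in turn (9 to 9). Those runs could not lower it, because genes above the cutoff on all 3 arrays also pass there. Median centring, which shifts a gene and its cutoff alike, also gave 9. So did the highest probe set, which leaves the members' values unchanged because each has 1 probe set. The count was 9 with a 99th percentile cutoff and after quantile normalization, and 6 with other silent families as background. With those families the genes listed as repressed by Myc above background numbered 5 in place of 8; the other list counts stayed within 1.5 times under every alternative run. The variance test called no member under any alternative. Its lowest member adjusted p lay between 0.381 (quantile normalization) and 0.968 (no trend), and members at an unadjusted p under 0.05 numbered 2, or 1 without the trend. Without repeat 2 those 2 were Mycl and Mxd1, and the adjusted p of Myc and Mycn was 0.997. Over all genes the calls numbered 22, and 10 without the robust prior, 1 without the trend, 19 with all genes tested, 13 after quantile normalization, 39 after median centring, 18 with the highest probe set, and 0 to 34 without 1 repeat. No paired analysis was possible because there is only 1 group.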

Other observations

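The genes with a pattern over the 3 arrays most like that of Mycn, looked up after its values were seen, were Ncan, Rdh1 and Podn, with root mean square differences of 0.0045, 0.0046 and 0.0055 in centred log2 intensity. Ncan, a brain proteoglycan, read 6.17, 5.72 and 6.06 in repeats 1, 2 and 3. All 3 genes lay below the higher background cutoff on every array. Among 12809 genes, 148 lay within 0.05 of Mycn.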
